A study of Mus musculus with 6 samples.

Results

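Muscle-rich spots of the uterus were compared between mice exposed to diethylstilbestrol (DES) as newborns and control (CO) mice. In each of 4 spatial transcriptomics sections the spots were ranked by the summed UMIs (unique molecules) of Myh11, Acta2, Tagln and Cnn1 as a share of all UMIs in the spot, and the top 15% of spots were taken, so the spots were selected on measured expression of these genes. This gave 930 of 6199 spots. The control sections CO A and CO B gave 215 of 1433 and 275 of 1834 spots, and the exposed sections DES A and DES B gave 236 of 1575 and 204 of 1357. The raw UMIs of these spots were summed within each section, the 4 ranking genes were left out, and the 2 DES sums were compared with the 2 CO sums. Levels are given as CPM, the UMIs of a gene per 1000000 UMIs of the sum.

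The sections were cut lengthwise from frozen uteri of CD-1 mice aged 12 months, 1 mouse a section. DES mice had received 1 mg/kg/day of DES in corn oil on days 1 to 5 after birth, and CO mice corn oil alone. CO mice in estrus were chosen because DES mice stay in persistent estrus, and DES sections were chosen for the presence of adenocarcinoma, so DES exposure cannot be told apart from the cancer in these sections. Per the study, the tissue of CO B was partly folded and DES B separated poorly into clusters. A spot is 55 µm wide and holds several cells, so a spot rich in muscle also holds RNA of the vessels, connective tissue, immune cells and epithelium beside the muscle.

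The myometrium is the muscular wall of the uterus, with an inner circular and an outer longitudinal layer separated by a plane of vessels. Its smooth muscle cells contract through smooth muscle myosin (Myh11 is its heavy chain) pulling on thin filaments of alpha and gamma smooth muscle actin (Acta2, Actg2), with tropomyosins, calponin (Cnn1) and transgelin (Tagln) along them. Many of these genes are driven by serum response factor and its partner myocardin, through a short promoter element called the CArG box. Oxytocin and prostaglandins stimulate contraction through receptors on the muscle cells, and a matrix of collagens and basement membrane surrounds each cell. DES is a synthetic estrogen that, given around birth, alters the development of the female reproductive tract.

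The share of the ranking genes chose the spots, and it is given as a description only. Among the muscle-rich spots its median was 3.65% and 3.42% of the UMIs in a spot in the CO sections (A, then B, here and throughout) and 1.94% and 1.63% in the DES sections. The last spot taken and the first left out stood at 3.28% and 3.27% for CO A, both at 2.80% for CO B, both at 1.01% for DES A, and at 0.962% and 0.959% for DES B. The most muscle-rich single spots were closer, at 4.66% and 5.71% in the CO sections and 4.26% and 4.33% in the DES sections. The top 15% therefore reached further down the share in the DES sections than in the CO sections, and the muscle-rich spots of the DES sections were less rich in the ranking genes. Of all UMIs in the muscle-rich spots Acta2 made up 1.63% and 1.55% in CO A and CO B and 1.04% and 0.927% in DES A and DES B. Myh11 made up 0.723%, 0.625%, 0.334% and 0.303% in the same order, Cnn1 0.828%, 0.780%, 0.410% and 0.322%, and Tagln 0.512%, 0.740%, 0.428% and 0.393%. A common cutoff of 2.46%, the 85th percentile over all 6199 spots, was therefore used as an alternative. It sets the same lowest share in every section, not the same share. It kept 428 and 389 spots in the CO sections and 70 and 43 in the DES sections. The median share of these spots was still higher in CO, at 3.28% and 3.14%, than in DES, at 2.84% and 2.77%. The values at this cutoff are given beside the main results.

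**Figure D1:**
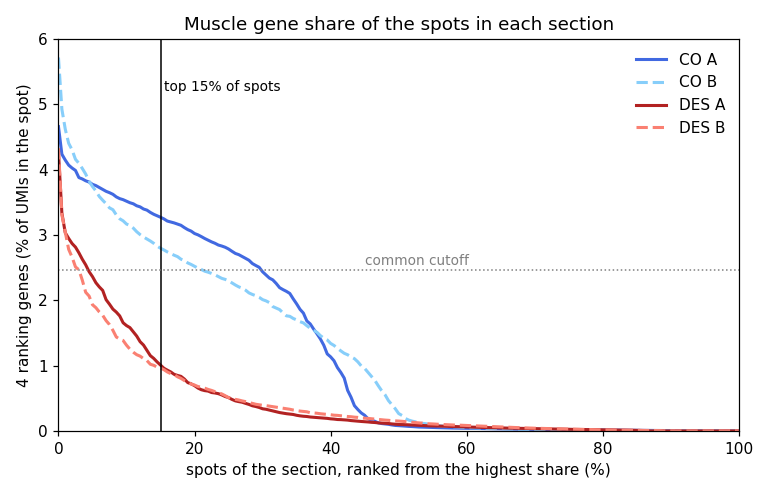
Share of the 4 ranking genes among the UMIs of each spot (y axis, percent), with the spots of each section ordered from the highest share (x axis, percent of spots). The solid line at 15% is where the muscle-rich spots end and the dotted line is the common cutoff of 2.46%; at the solid line both CO curves stand near 3% and both DES curves near 1%.

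Smooth muscle markers that were not used for the ranking were higher in the muscle-rich than in the other spots of every section. Desmin (Des), the intermediate filament of muscle, stood at 7467 and 11200 CPM in the muscle-rich spots of CO and 6564 and 4803 in those of DES, against 1245, 1899, 316 and 390 in the other spots. The regulatory light chain Myl9 stood at 16203, 16234, 9852 and 9273, against 2315, 2919, 744 and 799. In all 4 sections the muscle-rich spots were therefore richer in muscle RNA than the rest of the section. The authors' clustering put 94.9% of the muscle-rich spots of CO A and 95.6% of those of CO B into 2 clusters, against 81.8% in DES A and 71.6% in DES B, and they fell in 4 clusters in each CO section and in 5 and 7 in the DES sections. Cluster 5 of DES B held 22.1% of its muscle-rich spots and cluster 4 of DES A 2.54%. These clusters were named stroma in the study, and the part of their spots in the results was not tested. The muscle-rich sums held 2043407 and 1791581 UMIs in CO A and CO B and 677717 and 924508 in DES A and DES B. The median spot held 8597 and 6499 UMIs in the CO sections and 2621.5 and 4122.5 in the DES sections, so that low genes are measured less well in DES. Mitochondrially encoded RNA made up 1.03% to 1.14% of the UMIs in all 4 sums.

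Of 9923 genes tested, 234 differed between DES and CO (2.36% of the genes tested; edgeR quasi-likelihood test, adjusted p under 0.05), 153 higher in DES (1.54%) and 81 lower (0.816%). Of the genes lower in DES, most were richer in the muscle: 59 of the 81 had a higher CPM in the muscle-rich than in the other spots of all 4 sections, as did 23.3% of all genes tested. Of the genes higher in DES, most were poorer in the muscle. Of the 153, 91 were lower in the muscle-rich than in the other spots of all 4 sections, as were 37.1% of all genes tested, and 8 were higher in all 4. The selected DES spots held a smaller share of the ranking genes than the selected CO spots. The counts of muscle-rich genes among the falls and muscle-poor genes among the rises follow in part from that selection and are a description. At the common cutoff 46 of 9470 genes passed (0.486%), 26 higher and 20 lower, of which 42 were among the 234. There 80 of the 81 lower genes could be tested, all with the same sign and 17 past the threshold, and 93 of the 153 higher genes could be tested, 85 with the same sign and 25 past it. Scaling by library totals alone gave 236 higher and 60 lower, and scaling to the 4 ranking genes, chosen after the data were seen, shifted the median of all genes to 1.05 on the log2 scale and gave 5714 higher and 46 lower. Without DES A 48 genes passed and without DES B 34, while 1273 passed without CO A and 1570 without CO B. Of the called genes named here by rule 32 of the 101 tested passed without DES A, 26 of 95 without DES B and 33 of 88 at the common cutoff.

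Contractile genes of smooth muscle were lower in DES or did not pass. Of 33 genes on the list 32 were tested, 7 were lower and 0 higher, and the median log2 fold change was -0.80 against 0.00 over all genes. Of all genes tested 0.816% were lower. Gamma smooth muscle actin, Actg2 (chr6:83512905-83536265, minus strand, mm10), stood at 9677 and 10335 CPM in CO A and CO B and at 2799 and 2021 in DES A and DES B. Both DES values lay well under both CO values, with a log2 fold change of -2.25 ± 0.24 (SE, n = 2 sections a group; edgeR adjusted p = 0.0029). The tropomyosins, which control access of myosin to actin, followed. Tpm2 stood at 10684 and 10036 in the CO sections and 4412 and 4052 in the DES sections (log2 fold change -1.48 ± 0.21; edgeR adjusted p = 0.013). Tpm1 stood at 5543 and 4697 against 2288 and 1952 (-1.46 ± 0.22; edgeR adjusted p = 0.016). Linkers between the filaments and the membrane were also lower, by smaller amounts. Vinculin (Vcl), which anchors actin at the membrane, stood at 499 and 558 against 296 and 231, synaptopodin 2 (Synpo2) at 674 and 719 against 412 and 327, and the Z-disc protein Pdlim3 at 1173 and 974 against 582 and 543. Their log2 fold changes were -1.20 ± 0.24, -1.11 ± 0.23 and -1.12 ± 0.22, each with an edgeR adjusted p between 0.040 and 0.047. The calcium store protein Casq2 stood at 18.3 and 42.3 against 4.53 and 1.10, on 4 UMIs in the DES sections together (-3.69 ± 0.71; edgeR adjusted p = 0.038).

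Other parts of the contractile machinery did not pass. Myosin light chain kinase (Mylk), which switches contraction on, stood at 2787 and 2274 in CO and 2149 and 1701 in DES (edgeR adjusted p = 0.25). Smoothelin (Smtn), a marker of contractile cells, stood at 1952 and 3149 in CO and 2401 and 1799 in DES, with the groups overlapping (edgeR adjusted p = 0.49). Desmin (Des) and Myl9 had log2 fold changes of -0.91 ± 0.27 and -0.95 ± 0.21 (edgeR adjusted p = 0.14 and 0.054). Serum response factor (Srf) stood at 127 and 153 in CO and 137 and 113 in DES (edgeR adjusted p = 0.57).

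Actg2 was the 1 contractile gene that passed at the common cutoff. There it stood at 9146 and 9049 CPM in CO A and CO B and 4000 and 3363 in DES A and DES B, with a log2 fold change of -1.39 (edgeR adjusted p = 0.013). The list's median at that cutoff was -0.21 over 32 genes, and Tpm2 and Tpm1 had edgeR adjusted p = 0.17 and 0.16. Summed over the list, contractile genes made up 96940 and 100216 CPM in the CO sections and 59480 and 51361 in the DES sections in the top 15%, and 91469, 94301, 76364 and 73956 above the common cutoff. Fewer muscle cells in a spot and less of these RNAs per cell cannot be told apart in summed spots. Scaled to the 4 ranking genes, which raised all genes by construction, the list's median was 0.24, with 5 genes higher and 2 lower by edgeR. Without DES A or without DES B 0 of its genes passed.

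**Figure D2:**
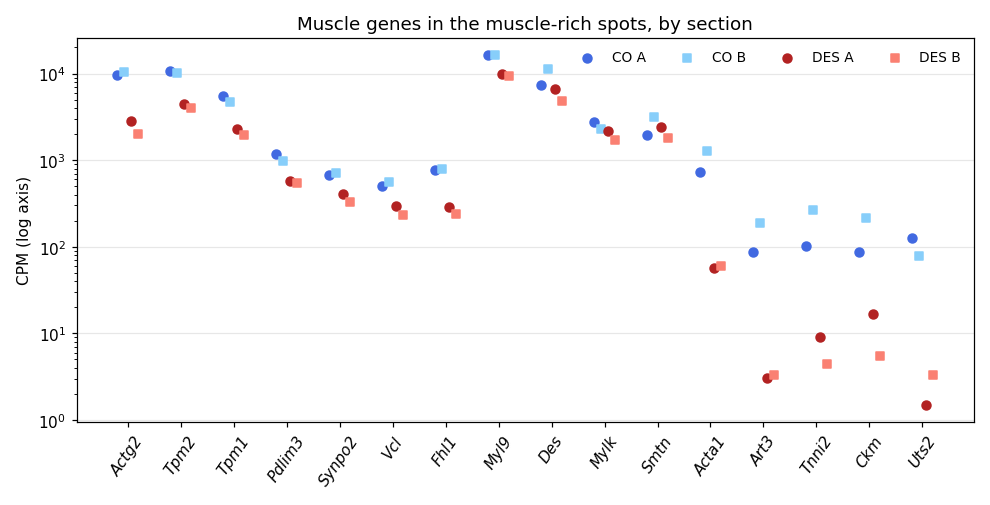
CPM (y axis, log scale) in the muscle-rich spots for smooth muscle genes and, from Acta1 rightwards, genes named for striated muscle and other muscle-rich genes (x axis); each point is 1 section (circles A, squares B; blue CO, red DES). The DES points of Actg2 and of the 5 genes from Acta1 on lie far under the CO points, while those of Smtn overlap them.

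Acta1, Ckm and Tnni2, best known from striated muscle, were called lower; no list of striated muscle genes was tested. Skeletal alpha actin, Acta1 (chr8:123891769-123894751, minus strand), stood at 736 and 1288 CPM in CO A and CO B and at 57.3 and 59.6 in DES A and DES B. The fall was seen in both DES sections by more than 10-fold, with a log2 fold change of -4.30 ± 0.35 (edgeR adjusted p = 0.00081). At least 1 UMI of Acta1 was found in 91.2% and 90.9% of the muscle-rich spots of CO A and CO B and in 14.0% and 20.6% of those of DES A and DES B. Above the common cutoff it stood at 792 and 1326 against 41.4 and 30.1 (-4.97; edgeR adjusted p = 0.001), and it passed with any 1 section left out. Muscle creatine kinase (Ckm), which regenerates ATP, stood at 87.4 and 213 against 16.6 and 5.52 (-4.03 ± 0.59; edgeR adjusted p = 0.016). Fast skeletal troponin I (Tnni2) stood at 102 and 264 against 9.05 and 4.41 (-5.00 ± 0.60; edgeR adjusted p = 0.0058). In the CO sections both were higher in the muscle-rich than in the other spots, where Ckm stood at 15.1 and 24.6 and Tnni2 at 44.5 and 137. In the DES sections Tnni2 was lower in the muscle-rich than in the other spots, which stood at 20.4 and 20.6. Tnni2 did not pass in the muscle-rich spots without epithelial UMIs (edgeR adjusted p = 0.27).

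Uts2, which encodes the vasoactive peptide urotensin 2 (chr4:150997097-151001810, plus strand), stood at 126 and 78.8 in CO A and CO B and at 1.51 and 3.31 in DES A and DES B. The DES values rest on 1 and 3 UMIs, and the log2 fold change was -5.46 ± 0.48 (edgeR adjusted p = 0.0011). It was the only other gene lower in DES that passed with each of the 4 sections left out in turn and at the common cutoff. Art3, an ADP-ribosyltransferase family member, stood at 87.4 and 190 against 3.02 and 3.31, on 5 UMIs in DES (-5.59 ± 0.57; edgeR adjusted p = 0.0023). Ctla2a, an inhibitor of cysteine proteases whose reads may be shared with its close copy Ctla2b, stood at 992 and 5193 in CO and 178 and 227 in DES (-4.13 ± 0.69; edgeR adjusted p = 0.025). The CO sections themselves lay more than 5-fold apart for this gene. Without DES A or without DES B, Art3, Ckm, Tnni2 and Ctla2a had edgeR adjusted p between 0.053 and 0.34, and at the common cutoff Art3, Tnni2 and Ctla2a passed (edgeR adjusted p = 0.019, 0.024 and 0.012) and Ckm did not (0.055).

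Further genes richer in the muscle-rich than in the other spots of all 4 sections were lower in DES by smaller amounts. Pola2, a subunit of DNA polymerase alpha, stood at 139 and 167 in CO and 31.7 and 16.5 in DES (-2.89 ± 0.34; edgeR adjusted p = 0.0057). Smoc2, a secreted calcium-binding matrix protein, stood at 365 and 693 in CO and 87.5 and 79.4 in DES (-2.86 ± 0.35; edgeR adjusted p = 0.0062). Aifm2, which guards membranes against lipid peroxidation, had 66.6 and 120 against 18.1 and 13.2, the growth factor Clec11a 79.3 and 176 against 25.7 and 29.8, and Figf, the lymphatic growth factor VEGF-D, 50.3 and 122 against 22.6 and 18.8. These 3 had log2 fold changes of -2.78 ± 0.41, -2.39 ± 0.43 and -2.26 ± 0.47, and each DES value was under both CO values. None of these 5 genes passed without DES A (edgeR adjusted p between 0.053 and 0.32) or without DES B (0.21 to 0.65). At the common cutoff Smoc2 and Aifm2 passed, and Pola2, Clec11a and Figf did not (edgeR adjusted p = 0.055, 0.078 and 0.28).

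Falls at very low counts are given by their UMIs. Adamts19, a secreted metalloprotease, had 17 and 20 UMIs in the CO sections and 0 in both DES sections, at least 5.24-fold lower, with the DES group set to a floor of 3 UMIs. The mast cell tryptase Tpsab1 had 23 and 55 UMIs in CO and 1 and 0 in DES, a CO to DES ratio of 33.1 with a 95% counting interval of 5.78 to 1326. The histone H2B gene Hist1h2be had 36 and 94 against 2 and 1, a ratio of 18.4 (6.16 to 90.4), and its reads may be shared with other histone copies. None of these 3 genes passed without DES A (edgeR adjusted p between 0.19 and 0.24), without DES B (0.50 to 0.56) or at the common cutoff (0.23 to 0.30).

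The promoter sequences of genes that were lower in DES were searched for the CArG box, the element bound by serum response factor, because it is shared by smooth and striated muscle actin genes. It was sought only as an exact CCWWWWWWGG, where W is A or T, a pattern that reads the same on both strands. A box with any other base in it was not counted. The search covered the 250 bases before each gene's start in the RefSeq promoters of GRCm38.p6. The exact pattern was present in 1.62% of the 27025 genes with a promoter there and in 1.55% of the 7494 tested genes among them. Of the 81 genes lower in DES 57 had a promoter and 4 of these held a box, and of the 153 genes higher in DES 91 had a promoter and 0 held one. On the contractile list 5 of 30 held one (Cnn2, Myl6, Myl9, Srf and Vcl), and of these only Vcl was called lower. Of the 4 ranking genes 2 had a promoter and 0 held the exact pattern, which does not show that they lack a box of another spelling. Actg2, Myh11 and Tagln were not searched, and the windows of Cnn2, Myl6 and Srf are not printed. The windows of the 4 lower genes, and of Myl9 which did not pass, are printed here 5′ to 3′ on the strand of the gene, with the box in capitals.
Acta1, chr8:123894814-123894873, minus strand: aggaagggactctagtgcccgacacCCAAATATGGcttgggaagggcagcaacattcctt
Fhl1, chrX:56779556-56779615, plus strand: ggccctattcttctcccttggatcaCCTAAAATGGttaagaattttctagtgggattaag
Myadm, chr7:3292812-3292871, plus strand: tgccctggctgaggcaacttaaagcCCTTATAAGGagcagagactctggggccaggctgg
Vcl, chr14:20929148-20929205, plus strand: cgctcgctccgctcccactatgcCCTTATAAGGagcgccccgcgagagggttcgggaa
Myl9, chr2:156775278-156775337, plus strand: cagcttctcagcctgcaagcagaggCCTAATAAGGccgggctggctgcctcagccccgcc
The boxes began 73 bases before the start in Acta1, 102 in Fhl1, 191 in Myadm, 227 in Vcl and 161 in Myl9. Fhl1, a LIM protein of muscle, stood at 779 and 797 CPM in CO and 288 and 240 in DES (-1.77 ± 0.23; edgeR adjusted p = 0.0078), and Myadm, a membrane protein, at 179 and 198 against 80.0 and 78.3 (-1.44 ± 0.24; edgeR adjusted p = 0.027). Fhl1 and Myadm were named after their promoters were read. The match is a description of the letters and not of a bound site.

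Genes of the matrix lists were lower in DES or did not pass, with chains of collagen IV, the network collagen of basement membranes, among the falls. Outside these lists the matrix genes Mgp and Chad were higher, as given below. Of 17 basement membrane genes tested, 5 were lower and 0 higher, with a median log2 fold change of -1.24, where 0.816% of all genes tested were lower. Col4a1, a chain of the main collagen IV trimer, stood at 840 and 1150 CPM in CO A and CO B and 303 and 240 in DES A and DES B (-2.07 ± 0.26; edgeR adjusted p = 0.0078). Its partner Col4a2 stood at 686 and 858 against 311 and 255 (-1.64 ± 0.24; edgeR adjusted p = 0.016). Both CO values were above both DES values by more than 2-fold for each. The chains Col4a5 and Col4a6, found in smooth muscle basement membranes, had 32.5 and 34.2 against 13.6 and 7.72, and 37.1 and 45.8 against 7.54 and 12.1. The laminin chain Lamb1 stood at 163 and 218 against 75.4 and 70.6, with a log2 fold change of -1.58 ± 0.27.

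Of 36 fibrillar collagen and matrix genes tested, 7 were lower and 0 higher, with a median of -0.55, where 0.816% of all genes tested were lower. Collagen III forms fibrils between muscle bundles together with collagen I, and Col3a1 stood at 1612 and 3016 in CO and 804 and 870 in DES (-1.66 ± 0.32; edgeR adjusted p = 0.038). Col6a3 of the microfibrils around cells stood at 1740 and 1353 against 702 and 503 (-1.55 ± 0.25; edgeR adjusted p = 0.022). Col5a1, Col5a2, fibrillin 1 (Fbn1), the collagen-binding protein Sparc and the crosslinking enzyme Lox had log2 fold changes between -1.71 and -1.22. Col1a1 and Col1a2, the chains of collagen I, stood at 1115 and 2042 against 688 and 869, and at 2028 and 2912 against 1019 and 1362, and did not pass (edgeR adjusted p = 0.10 and 0.060). Unlike the contractile list, the fibrillar list's median was lower at the common cutoff, at -0.82, with 5 genes past the threshold: Col1a2, Col3a1, Col6a3, Sparc and Lox. The basement membrane median was -1.21 there, and Col4a1 passed (-2.00; edgeR adjusted p = 0.011). Of 17 matrix proteases and inhibitors tested, Adamts2, which trims procollagen, was lower (265 and 227 against 96.6 and 99.3), and of 15 stroma markers Col6a3, Smoc2 and Hsd11b2, which inactivates glucocorticoid, were lower. Adamts2 and Hsd11b2 did not pass at the common cutoff (edgeR adjusted p = 0.25 and 0.084). Without DES A or without DES B 0 genes of these 4 lists passed. Scaled to the 4 ranking genes, which raised all genes by construction, the medians were 0.49 for fibrillar matrix (9 genes higher and 1 lower by edgeR), 0.60 for proteases (5 and 0), 0.52 for stroma (6 and 1) and -0.20 for basement membrane (4 and 2).

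Hormone receptors and the receptors that set contraction mostly did not differ past the threshold. Of 13 steroid receptor and estrogen-responsive genes tested, 0 passed, with a median of 0.04, where 2.36% of all genes tested were called. Esr2 had a total of 1 UMI, in CO B. The estrogen receptor Esr1 stood at 267 and 182 CPM in CO A and CO B and 315 and 276 in DES A and DES B (log2 fold change 0.21 ± 0.25; edgeR adjusted p = 0.78). The progesterone receptor Pgr stood at 176 and 35.4 in CO and 92.0 and 115 in DES, so the DES sections lay between the CO sections. The oxytocin receptor Oxtr showed the same pattern, at 326 and 71.9 in CO and 294 and 261 in DES. For both genes the spread between the CO sections was larger than any difference between the groups. Of 19 contraction receptors and regulators tested 1 passed: the prostaglandin E2 receptor Ptger3 stood at 86.9 and 69.0 in CO and 21.1 and 13.2 in DES (-2.39 ± 0.34; edgeR adjusted p = 0.013). It did not pass at the common cutoff (68.6 and 68.0 against 33.9 and 18.8; edgeR adjusted p = 0.24), without DES A (0.11) or without DES B (0.37).

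Immunoglobulin genes, expressed by plasma cells, rose in DES. Of 13 immunoglobulin and plasma cell genes tested 10 were higher and 0 lower, where 1.54% of all genes tested were higher. The 17 listed genes summed to 316 and 332 CPM in CO A and CO B and to 15721 and 34784 in DES A and DES B. The kappa light chain constant gene Igkc (chr6:70726435-70726966, plus strand) stood at 68.1 and 44.0 in CO and 6853 and 15255 in DES (log2 fold change 7.44 ± 0.50; edgeR adjusted p = 0.00039). The heavy chain of IgA, the antibody of mucosal surfaces, followed: Igha stood at 22.9 and 68.4 against 4611 and 11077 (7.24 ± 0.68; edgeR adjusted p = 0.0016). The IgM chain Ighm stood at 15.2 and 22.6 against 1608 and 879, with DES A the higher of the DES sections here and DES B the higher for Igkc and Igha. Jchain, which links IgA and IgM units, stood at 8.64 and 11.6 against 1169 and 2060, and Mzb1, a chaperone of antibody secretion, at 1.52 and 2.32 against 55.8 and 117. Ighg2b stood at 5.08 and 26.7 against 901 and 2568. Reads of constant genes with near-identical copies, such as Iglc1, Iglc2 and Iglc3, may be shared between them. Ighg1 had 0 UMIs in the CO sections and 18 and 41 in the DES sections, at least 46.3-fold higher, but above the common cutoff it stood at 17.2 and 0 CPM against 30.1 and 117 (edgeR adjusted p = 0.40), and without DES B it did not pass (edgeR adjusted p = 0.22). Iglc1 had 0 and 1 UMIs against 15 and 124, a ratio of 327 with a counting interval of 57.8 to 13013. It did not pass without DES B (edgeR adjusted p = 0.26), and DES A stood at 22.6 CPM against 137 in DES B. The list's median log2 fold change was 6.51, or 6.01 with Ighg1 at its bound. Ighg1, Iglc1, Iglc2, Iglc3 and Mzb1 had 0 to 4 UMIs in each CO section and passed the count filter through the DES sections. Only a rise could be called for them, so the list's count of calls and median follow in part from the filter.

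These transcripts were concentrated in a few spots in CO as in DES. In CO A and CO B the 22 and 28 muscle-rich spots with the most Igkc held 93.3% and 78.9% of its 134 and 76 UMIs. The 24 and 21 muscle-rich spots with the most UMIs of Igkc held 83.0% of them in DES A and 69.6% in DES B, yet 72.0% and 83.3% of the spots held at least 1 UMI, against 14.4% and 16.0% in CO A and CO B. The rise of the immunoglobulin genes remained at the common cutoff, where 8 of 12 tested genes passed and Igkc stood at 299 and 48.0 against 2901 and 6319 (4.68; edgeR adjusted p = 0.029). Among the 49 and 37 muscle-rich spots of DES A and DES B without a UMI of the 5 epithelial genes Epcam, Krt8, Krt18, Krt19 and Krt14, 9 immunoglobulin genes passed. Without DES A 11 passed and without DES B 7.

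Other immune genes moved less. Of 6 MHC class II genes tested, the peptide-loading chains H2-DMa (10.7 and 22.6 against 58.8 and 94.9) and H2-DMb1 (5.59 and 9.27 against 36.2 and 86.0) were higher, and of 11 MHC class I presentation genes 0 passed, with H2-K1 at 205 and 254 against 413 and 1061 and H2-D1 at 312 and 727 against 527 and 1013. Of 13 chemokines and cytokines 4 were higher: the lymphatic chemokine Ccl21a, the alarmin Il33 (2.54 and 1.16 against 42.2 and 55.2; log2 fold change 4.45 ± 0.46), and on few UMIs the neutrophil attractant Cxcl5, with 2 UMIs in CO and 24 in DES, and the B cell attractant Cxcl13, with 3 and 26. The DES to CO ratios of Cxcl5 and Cxcl13 were 28.2 (counting interval 7.01 to 247) and 20.4 (6.25 to 105). Complement C4b stood at 73.2 and 104 against 392 and 397 (1.97 ± 0.27; edgeR adjusted p = 0.011), the 1 gene of 13 on its list that passed. One gene each passed among 20 myeloid markers, the integrin Itgam (3.56 and 2.90 against 16.6 and 27.6), among 2 T and NK markers, the T cell receptor gene Trac (8.13 and 9.27 against 45.3 and 33.1), and among 4 eosinophil and mast cell markers, the eosinophil granule gene Prg2 (1.02 and 2.90 against 37.7 and 70.6). Of 22 interferon-stimulated genes 0 passed, with Isg15 at 19.8 and 18.0 against 3.02 and 18.8. Il33, Cxcl5, Cxcl13, Itgam and Prg2 had 0 to 7 UMIs in each CO section and passed the count filter through the DES sections. Only a rise could be called for these 5 genes, so the counts of calls that hold them follow in part from the filter. Above the common cutoff Trac (edgeR adjusted p = 0.043) and Ccl21a passed among the genes of this paragraph that were tested there. Trac did not pass without DES A or without DES B (edgeR adjusted p = 0.28 in each case), and neither did H2-DMa (0.17 and 0.65), C4b (0.15 and 0.27) and Itgam (0.19 and 0.79). Cxcl5 and Cxcl13 did not pass without DES A (edgeR adjusted p = 0.23 and 0.20) and were not tested without DES B. H2-DMb1, Il33 and Prg2 passed without DES A but not without DES B (edgeR adjusted p = 0.48, 0.066 and 0.14).

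Keratins of basal and squamous epithelium, the layered lining typical of vagina and cervix, were among the largest rises. Of 13 listed genes 8 were tested, and 7 were higher and 0 lower. The 7 called genes were Krt5, Krt14, Krt15, Krt13, Krt6a, Lypd3 and Sfn. Each had 0 to 12 UMIs in each CO section and passed the count filter through the DES sections. Only a rise could be called for these 7, so the filter set the direction of the calls, and their count follows in part from it. Of all genes tested 1.54% were higher. The list summed to 30.5 and 22.6 CPM in CO A and CO B and to 1833 and 2032 in DES A and DES B. Krt5, a keratin of basal cells (chr15:101707070-101712898, minus strand), had 2 and 3 UMIs in the CO sections, or 1.02 and 1.74 CPM, against 789 and 948 CPM in the DES sections (log2 fold change 9.04 ± 0.38; edgeR adjusted p = 4.0e-05). Its partner Krt14 stood at 0.508 and 3.48 against 610 and 578 (8.02 ± 0.50; edgeR adjusted p = 0.00038). Krt5 was found in 64.8% and 69.1% of the muscle-rich spots of DES A and DES B and in 0.930% and 1.09% of those of CO A and CO B. The other spots of the DES sections held more of both, with Krt5 at 5643 and 3838 and Krt14 at 4466 and 2172. Krt15 had 2 UMIs in CO and 312 in DES, a ratio of 367 (101 to 3045), and Krt13, Krt6a and Lypd3 of squamous layers had 1, 1 and 0 UMIs in CO against 104, 52 and 16 in DES. Stratifin (Sfn) stood at 6.10 and 2.90 against 107 and 122. At the common cutoff Sfn stood at 11.5 and 5.23 against 26.3 and 22.6 and did not pass (1.43; edgeR adjusted p = 0.49). Above the common cutoff 4 of 6 tested genes of the list passed, with Krt5 at 0.957 and 3.05 against 369 and 328 (7.39; edgeR adjusted p = 0.00026), and 6 passed without DES A and 6 without DES B. The median over the 8 tested genes was 6.97, or 6.82 with Lypd3 at its bound, and it follows in part from the filter too.

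Of 20 general epithelial genes tested 9 were higher and 0 lower, with a median of 1.57 in the top 15% and -0.01 above the cutoff, where 1 of 19 passed. In the top 15%, 1.54% of all genes tested were higher. Olfm4, Muc5b, Cdh1 and Cldn4 had 0 to 11 UMIs in each CO section and passed the count filter through the DES sections. Only a rise could be called for these genes, so the list's count of calls and median follow in part from the filter. Without DES A or without DES B 2 of the 20 passed by edgeR, and Krt19, Krt7, Cdh1, Cldn4, Elf3 and Muc1 did not (edgeR adjusted p between 0.056 and 0.75). The secreted glycoprotein Olfm4 had 0 UMIs in both CO sections and 56 and 194 in the DES sections, at least 196-fold higher, and it was the 1 gene that passed at the cutoff. The simple keratins Krt19 and Krt7 stood at 65.6 and 38.8 against 149 and 192, and at 60.0 and 26.7 against 158 and 265. E-cadherin (Cdh1), the junction gene Cldn4, the transcription factor Elf3 and the mucin Muc1 had log2 fold changes between 1.62 and 3.01. In the other spots the whole list summed to 36398 and 14080 in CO and 19564 and 18284 in DES, and in the muscle-rich spots to 1705 and 1118 in CO and 2460 and 3282 in DES. The secreted products Tff1, a trefoil peptide, and Muc5b, a gel-forming mucin, had 2 and 1 UMIs in CO against 292 and 130 in DES, with ratios of 344 (94.3 to 2851) and 306 (54.0 to 12177). Aldh3a1, an aldehyde dehydrogenase, and Chad, a leucine-rich matrix protein, had 0 UMIs in CO and 51 and 37 in DES, at least 40.0-fold and 29.0-fold higher. DES B held 44 of the 51 and 29 of the 37. Chad did not pass without DES A (edgeR adjusted p = 0.0503), and neither gene was tested without DES B or at the common cutoff. Among the muscle-rich spots without a UMI of Epcam, Krt8, Krt18, Krt19 and Krt14, Krt5 (log2 fold change 7.21; edgeR adjusted p = 1.6e-05) and Krt15 (5.89; edgeR adjusted p = 0.0070) passed, the only 2 genes of the basal and squamous list tested there. Of 9 general epithelial genes tested there 0 passed by edgeR, with Krt7 at 2.19 and Muc1 at 1.33 (edgeR adjusted p = 0.078 and 0.44).

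**Figure D3:**
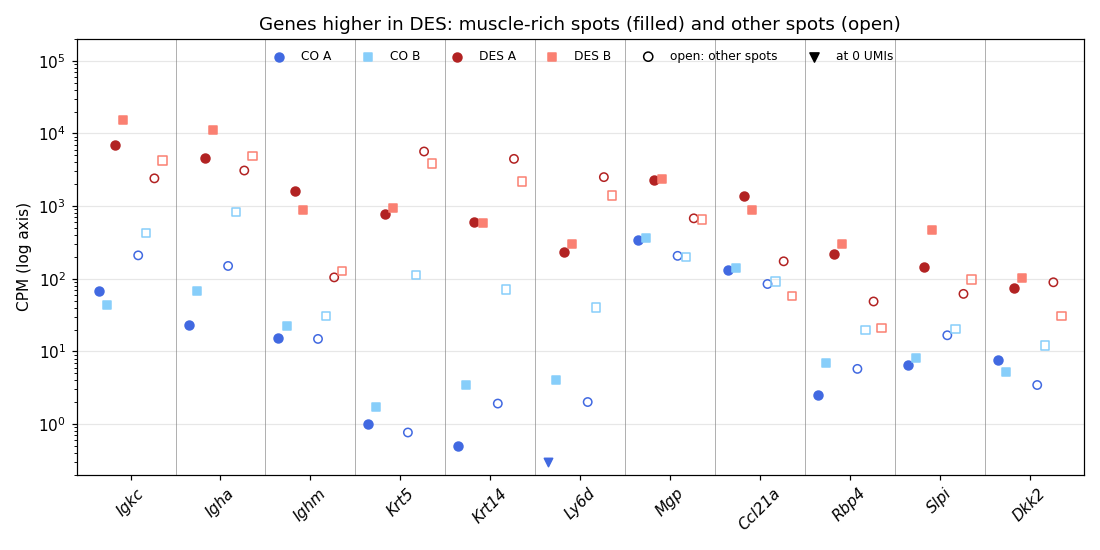
CPM (y axis, log scale) of 11 genes that were higher in DES (x axis), in the muscle-rich spots (filled) and the other spots (open) of each section (circles A, squares B; blue CO, red DES; a triangle marks 0 UMIs). The keratins Krt5 and Krt14 and Ly6d are higher in the other spots of the DES sections than in their muscle-rich spots, while the immunoglobulin genes, Mgp, Ccl21a, Rbp4 and Slpi are higher in the muscle-rich spots of these sections.

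Among genes with a higher CPM in the muscle-rich than in the other spots of every section, 3 were higher in DES with a mean of at least 50 CPM. Matrix Gla protein, Mgp (chr6:136872435-136875823, minus strand), an inhibitor of calcification made by vascular and connective tissue cells, stood at 340 and 370 in CO A and CO B and 2257 and 2333 in DES A and DES B. The groups were far apart and the sections within each close, with a log2 fold change of 2.50 ± 0.22 (edgeR adjusted p = 0.0014). The lymphatic chemokine Ccl21a (chr4:42772860-42773993, minus strand), whose reads may be shared with near-identical copies, stood at 131 and 139 against 1396 and 881 (2.88 ± 0.28; edgeR adjusted p = 0.002). Phlda3, a p53-responsive brake on AKT signaling, stood at 76.7 and 111 against 349 and 242 (1.45 ± 0.29; edgeR adjusted p = 0.045). Mgp and Ccl21a passed at the common cutoff, with log2 fold changes of 1.72 and 1.95, and with each section left out. Phlda3 did not (edgeR adjusted p = 0.052 at the cutoff, 0.45 without DES A and 0.39 without DES B).

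Of 19 endothelial genes tested in the top 15% 9 were higher and 0 lower, with a median of 1.61, where 1.54% of all genes tested were higher. Claudin 5 (Cldn5), of endothelial tight junctions, stood at 14.2 and 18.5 CPM in CO A and CO B and 174 and 105 in DES A and DES B (2.88 ± 0.34; edgeR adjusted p = 0.0056). Von Willebrand factor (Vwf), stored by endothelium for clotting, stood at 6.10 and 16.2 against 70.9 and 92.7 (2.70 ± 0.45; edgeR adjusted p = 0.025). The receptor Tie1, the vessel genes Egfl7, Ptprb, Plvap and Esam and the lymphatic genes Mmrn1 and Flt4 had log2 fold changes between 1.52 and 2.66. Tie1 had 11 and 9 UMIs in the CO sections and passed the count filter through the DES sections, so only a rise could be called for it. The pan-endothelial markers Pecam1 and Cdh5 stood at 19.3 and 28.4 against 67.9 and 61.8, and at 8.64 and 15.1 against 37.7 and 44.1, and did not pass (edgeR adjusted p = 0.089 and 0.077). There the common cutoff gave a median of 0.75 and 0 of 18 passed by edgeR, with Cldn5 nearest the threshold (edgeR adjusted p = 0.054). Without DES A 0 passed and without DES B 1. Of 10 pericyte and vascular muscle markers 0 passed, with Rgs5 at 57.9 and 81.1 against 145 and 119 and Notch3 at 8.13 and 9.85 against 63.4 and 27.6 (edgeR adjusted p = 0.25 and 0.052).

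Of 7 mesothelial markers 3 were higher: Msln (4.57 and 2.90 against 27.2 and 21.0), Upk3b (2.03 and 1.16 against 24.1 and 14.3) and Slpi, a secreted protease inhibitor that epithelia also make. Of all genes tested 1.54% were higher. Msln and Upk3b had 2 to 9 UMIs in each CO section and passed the count filter through the DES sections, so only a rise could be called for them. Slpi stood at 6.61 and 8.11 in CO and 145 and 472 in DES (5.21 ± 0.60; edgeR adjusted p = 0.0049), and it passed at the common cutoff and with each section left out. Msln and Upk3b did not pass without DES A (edgeR adjusted p = 0.35 and 0.37) or without DES B (0.50 and 0.39) and were not tested at the cutoff. Among 5 adipocyte, 3 erythroid and 2 Schwann and nerve markers tested 0 passed, with hemoglobin Hba-a1, whose copies share reads, at 74.2 and 26.7 in CO and 453 and 117 in DES.

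The developmental signaling lists (Wnt, TGF-beta and BMP, IGF) gave 1 or 2 calls each, all higher in DES, where 1.54% of all genes tested were higher. Of 23 Wnt pathway genes tested 1 was higher and 0 lower: Dkk2 (chr3:132085292-132180304, plus strand), a secreted modulator of Wnt co-receptors, stood at 7.62 and 5.22 CPM in CO A and CO B and 73.9 and 104 in DES A and DES B (3.59 ± 0.37; edgeR adjusted p = 0.0023). It passed at the common cutoff, where it stood at 7.97 and 4.80 against 94.1 and 121 (3.95; edgeR adjusted p = 0.0033), and with each section left out. In the other spots Dkk2 stood at 3.46 and 12.1 in CO and 89.5 and 30.9 in DES. Of 21 TGF-beta and BMP genes 2 were higher, among them the BMP target Id1 (19.3 and 15.1 against 86.0 and 71.7), and of 12 IGF axis genes 1, the IGF carrier Igfbp3 (6.61 and 7.53 against 84.5 and 27.6). Above the cutoff Id1 stood at 28.7 and 14.8 against 26.3 and 22.6, with no separation of the groups, and Igfbp3 did not pass (edgeR adjusted p = 0.33). Igfbp3 had 13 UMIs in each CO section and passed the count filter through the DES sections, so only a rise could be called for it.

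Housekeeping, stress and metabolic groups gave 0 to 3 calls each, where 2.36% of all genes tested were called. Of 53 oxidative phosphorylation genes encoded in the nucleus 0 passed by edgeR, though 49 had a negative log2 fold change (median -0.53, and -0.26 at the common cutoff). Of 10 mitochondrially encoded genes and 76 cytosolic ribosomal protein genes 0 passed, with medians of -0.07 and -0.12. The complex I gene Ndufa1 stood at 305 and 353 against 223 and 243, and Rpl3 of the large ribosomal subunit at 1708 and 1516 against 1676 and 1808. Of 17 glycolysis genes the phosphofructokinase Pfkp was lower (51.3 and 96.8 against 22.6 and 21.0), and of 33 heat shock and redox genes the chaperone Hspa1b was lower (204 and 196 against 84.5 and 87.1) and the glutathione transferase Gsta4 higher (3.05 and 9.85 against 77.0 and 130). Of 17 immediate early genes Klf4, a factor of epithelia and vessels, was higher (16.8 and 22.6 against 60.4 and 75), of 9 cell cycle genes 0 passed (Mki67 at 13.7 and 9.85 against 6.04 and 4.41), and of 16 lipid and steroid genes the fatty acid carrier Fabp5, the steroid reductase Srd5a1 and the carboxylesterase Ces1d were higher, by 2.22 to 3.35 on the log2 scale. Of these called genes none that was tested at the common cutoff passed there, and Srd5a1 was not tested. Klf4 then stood at 26.8 and 24.0 against 26.3 and 33.9 (edgeR adjusted p = 0.94), and Pfkp, Hspa1b and Gsta4 had edgeR adjusted p = 0.14, 0.19 and 0.14, with 0.89 for Fabp5 and 0.053 for Ces1d.

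**Figure D4:**
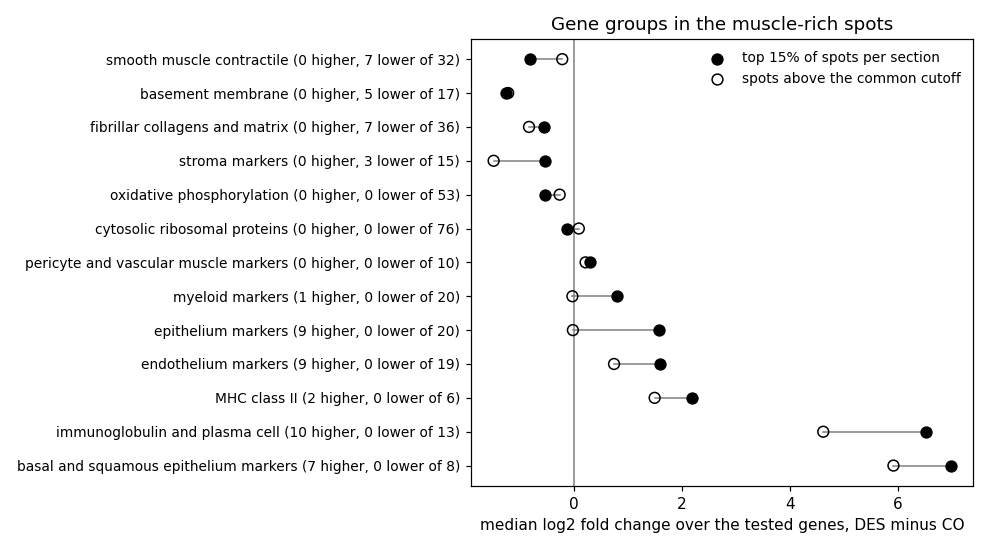
Median log2 fold change, DES minus CO (x axis), over the tested genes of 13 gene groups (y axis, with the numbers of genes called in the top 15%); filled points are the top 15% of spots of each section and open points the spots above the common cutoff. The medians of the epithelial and myeloid groups stand near 0 above the cutoff, and those of the immunoglobulin, basal keratin, basement membrane and stroma groups do not.

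The muscle-rich spots were next split within each section at the median share of the ranking genes. The median share was 3.84% above the split and 3.46% under it in CO A, and for CO B these were 3.96% and 3.08%. DES A had 2.59% and 1.48%, and DES B 2.23% and 1.18%. Contractile genes summed to 71137 CPM above the split and 41428 below it in DES A, and to 62950 and 34063 in DES B. In CO A they summed to 101652 and 91627 and in CO B to 109604 and 86923. The order of these sums follows the share that selected the spots. Immunoglobulin genes ran the other way in all 4 sections, with 10415 above and 23938 below the split in DES A, 23665 and 51380 in DES B, 257 and 382 in CO A, and 288 and 393 in CO B. Basal genes did likewise, with 988 and 3142, and 1102 and 3420, in DES, and 22.1 and 40.0, and 10.9 and 39.2, in CO. Endothelial genes were close to level across the split, at 2252 and 2334 in DES A and 1770 and 2081 in DES B. Actg2 stood at 3573 above and 1600 below in DES A and at 2669 and 1053 in DES B. Mgp was lower above than below the split in all 4 sections, at 1453 and 3503 in DES A, 2194 and 2541 in DES B, 308 and 376 in CO A, and 268 and 514 in CO B. Ccl21a stood at 770 above and 2365 below in DES A and 886 and 874 in DES B, with 131 and 131 in CO A and 102 and 192 in CO B. Dkk2 stood at 91.9 and 46.1 in DES A and 107 and 99.0 in DES B. The split uses the ranking genes and is a description.

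**Figure D5:**
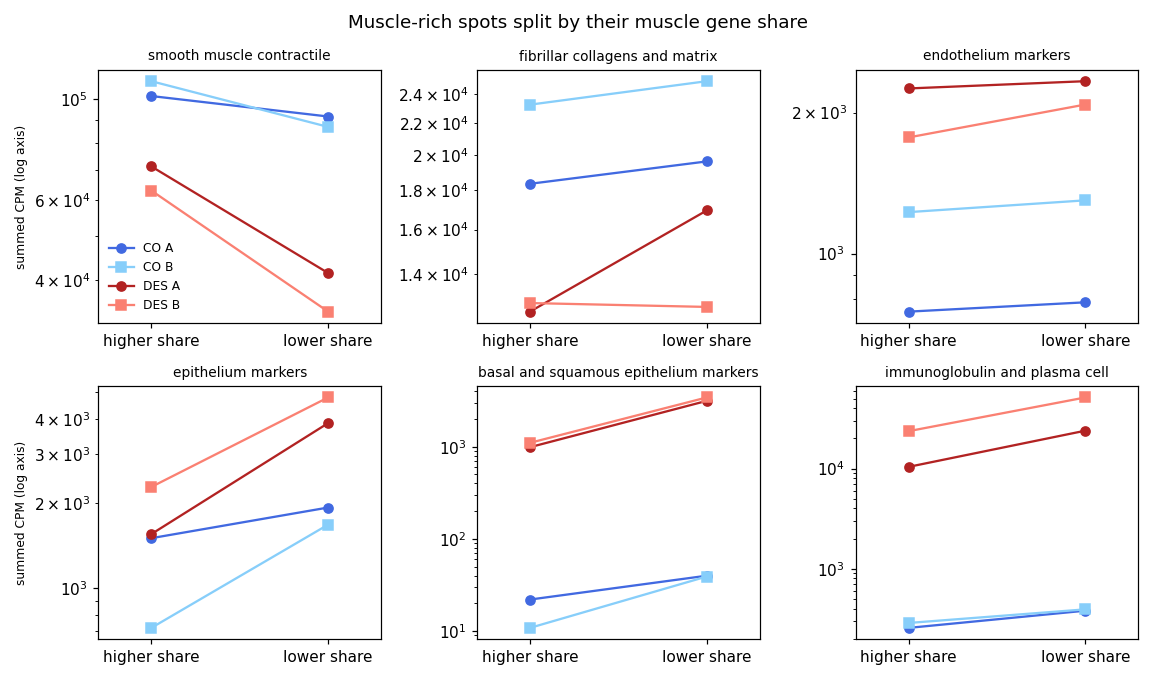
Summed CPM (y axes, log scale) of 6 gene groups in the muscle-rich spots of each section, split at the section's median share of the ranking genes into spots of higher and lower share (x axis; circles A, squares B; blue CO, red DES). In all 4 sections the contractile sum is higher and the immunoglobulin and keratin sums are lower in the spots of higher share, while the endothelial sums are close to level.

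A test of the difference itself asked whether DES and CO differed by the same amount in muscle-rich and in other spots. Of 13746 genes tested 336 passed (2.44%; edgeR), 222 with a DES to CO ratio higher in the muscle-rich spots and 114 with a lower one, and 61 of the 336 were also among the 234. The sets compared were unequal. The other spots of CO also held muscle, since the upper quartile of their share of the ranking genes was 1.72% and 1.63%, above the share at which the DES selection ended, against 0.224% and 0.296% in the other spots of DES. With the common cutoff 8 genes passed, 1 with a higher ratio and 7 with a lower one, and without DES A or without DES B 0, with 1546 and 1389 genes at an unadjusted p under 0.05. Of 16 immunoglobulin and plasma cell genes 6 had a higher ratio in the top 15% and 0 passed at the common cutoff. Jchain, at 43.8 and 127 CPM in the other spots of CO and 444 and 712 in those of DES, had a difference of 4.33 on the log2 scale (edgeR adjusted p = 0.00093), Igha 4.02 (edgeR adjusted p = 0.0018) and Ighm 3.49 (edgeR adjusted p = 0.005). Of 20 endothelial genes 14 had a higher ratio in the muscle-rich spots and 1, Pdpn, a lower one, and 0 passed at the common cutoff. Vwf stood at 8.26 and 22.5 in the other spots of CO and 8.54 and 13 in those of DES (difference 3.29; edgeR adjusted p = 0.0036). Ccl21a had a difference of 2.76 (edgeR adjusted p = 0.0042), with 84.8 and 91.7 in the other spots of CO and 174 and 58.0 in those of DES. The 11 of 33 contractile genes with a higher ratio, and 0 with a lower one, are a description of the selection, and 0 passed at the common cutoff. Actg2 stood in the other spots at 1303 and 1051 in CO and 67.6 and 105 in DES. Among the keratins Krt7, Krt15 and Krt13 had a higher ratio and Krt17 a lower one, while Krt5 and Krt14 did not pass (edgeR adjusted p = 0.18 and 0.26).

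In all, 24 genes passed in the top 15%, with each of the 4 sections left out in turn and at the common cutoff, 22 higher and 2 lower in DES. The 2 lower genes were Acta1 and Uts2. The 22 higher genes were 7 of the immunoglobulin group (Igkc, Iglc2, Ighm, Igha, Ighg2b, Jchain, Mzb1), 9 genes of basal, squamous or glandular epithelium (Krt5, Krt13, Krt14, Krt15, Ly6d, S100a14, Sprr1a, Olfm4, Tff1), and others, among them Mgp, Ccl21a, Dkk2, Slpi and Rbp4. Ly6d, S100a14, Sprr1a and Rbp4 were named after their values were seen. Krt5, Krt13, Krt14, Krt15, Olfm4, Tff1, Iglc2 and Mzb1 had 0 to 6 UMIs in each CO section and passed the count filter through the DES sections, as did Rbp4. Only a rise could be called for these genes, so the balance of higher and lower genes follows in part from the filter. The settings reuse the counts of the same sections. Rbp4, the plasma carrier of retinol, stood at 2.54 and 6.95 in CO A and CO B and 219 and 299 in DES A and DES B (log2 fold change 5.58 ± 0.45; edgeR adjusted p = 0.00079). In the other spots of the DES sections Rbp4 stood at 48.7 and 21.2, and above the common cutoff it stood at 5.10 and 7.85 in CO and 218 and 414 in DES.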

How the data were processed

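The authors counted UMIs per gene in each Visium spot with Space Ranger 1.2.2 on mm10 and deposited the raw counts, which were used without further normalization. Spots were ranked, selected and summed per section (30828 genes, 4 sums). Genes passing filterByExpr were tested with edgeR 4.0.16 (quasi-likelihood, TMM factors, Benjamini-Hochberg over all genes tested, threshold 0.05) in R 4.3.3, and the difference between muscle-rich and other spots in a fit with a term for each section. Alternatives were DESeq2 1.42.0, other scalings and filters, other spot selections, the replicate block and leaving out each section. The scripts were tested on simulated data. Levels are CPM without the 4 ranking genes, not per length. Each group has 2 sections of 1 mouse each, so a 2-sided exact permutation test cannot go below 0.333. Counting intervals (95%, Clopper-Pearson) and floors (3 UMIs over a group) cover counting error only. Named genes came from the 10 largest called rises and falls, the same among genes of at least 50 CPM richer in muscle-rich spots in all 4 sections, the 5 largest differences each way, and called members of 36 gene lists, or the first 2 where none passed. Other genes (among them Des, Myl9, Mylk, Smtn, Srf, Pgr, Oxtr, Col1a1, Col1a2, Pecam1, Cdh5) were named after their values were seen. On the lipid list Acta1 stood in error and was replaced by Acat1 after values were seen. Members and lists were chosen with earlier results of these data known. The 4 sections are on 1 slide whose spot barcodes repeat by position, 366 of them in all 4 sections. The section letters did not mark a shared mouse or block. The single-cell libraries were not used, and some items are not reported here.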

Additional observations from a re-analysis of the deposited data

Results flagged for a closer look

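The difference between DES and CO was itself different in muscle-rich and in other spots for 336 of 13746 genes (edgeR, adjusted p under 0.05), with 8 at the common cutoff (1 higher and 7 lower), 9 without CO A, 26 without CO B and 0 without either DES section. The 5 largest positive differences, on the log2 scale, were mostly in genes of low counts. Rasgrf1, a Ras exchange factor, had 5.88, with 1.52 and 2.90 CPM in the muscle-rich spots of CO A and CO B, 15.1 and 12.1 in those of DES A and DES B, and 4.51, 7.94, 0.356 and 0.783 in the other spots. The unnamed gene RP24-171J16.5 had 5.21, the drug pump Abcb1a, an endothelial gene too, 5.15, and the endothelin receptor Ednrb 5.12. The homeobox gene Msx1 had 5.01, and its other spots stood at 81.8 and 102 in CO and 7.71 and 3.58 in DES, while its muscle-rich spots stood at 61.0 and 11.0 and at 92.0 and 44.1. The 5 largest negative differences were -4.95 for the cadherin Pcdh15, -4.56 for the lectin Itln1, -4.16 for Lypd6, a modulator of Wnt signaling, -4.16 for the connexin Gjb6 and -4.05 for Igsf9. Pcdh15 had 16 UMIs in the muscle-rich spots of CO A and 0 in CO B, and 1 and 2 in DES A and DES B. Gjb6 stood at 96.5 in CO A and 8.69 in CO B. None of the 10 passed without DES A or without DES B by edgeR.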

How the results depend on the processing

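The number of genes that differed between DES and CO, 234 as reported, was within 1.5 times of it with DESeq2 (230), with DESeq2 size factors (227), with library totals (296) and with the legacy quasi-likelihood fit (215). It was 142 with no low-count filter, 58 in the top 10% of spots, 624 in the top 25%, 46 at the common cutoff, 39 in spots without epithelial UMIs and 5760 with UMIs scaled to the 4 ranking genes, a setting chosen after seeing the data. Leaving out 1 section gave 34 to 1570 genes, where the lone section of a group is assumed to vary like the other group. With the section letter as a replicate block 646 genes passed, but the letters only number the sections: deviations of the A sections correlated at -0.01 over 9923 genes, so the block is no pairing. The difference between muscle-rich and other spots, 336 genes, gave 291 with DESeq2 (222 higher, 69 lower), 187 with no filter, 207 in the top 10%, 745 in the top 25%, 8 at the common cutoff (1 higher, 7 lower) and 0 to 26 with 1 section left out. At the common cutoff 86 of 88 called genes named by rule kept their direction and 33 passed, and Elf3 (-0.012) and Fabp5 (-0.49) turned negative. For these changes the cause was not tested, apart from the smaller number of sections or spots by construction. The low UMI totals of the DES sums limit what can be seen of genes at a few CPM.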
